A study of Mus musculus with 6 samples.

Results

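The heat shock proteins and their DnaJ co-chaperones were examined in olfactory epithelium of mice carrying the OMP-GFP allele. Members were the genes whose symbol in the platform annotation begins with Hspa, Hspb, Hspd, Hspe, Hsph, Hsf or Dnaja to Dnajc followed by a number, or with Hsp90. This rule took 74 of the 18194 genes that a probe set of the array names alone, represented by 175 of 45101 probe sets, and the probe set of highest mean stood for each gene. Of the 74 genes, 59 passed the brightness filter and were tested, and the other 15 are described by their signals. The tissue came from mice homozygous for OMP-GFP (3 arrays) and from mice heterozygous for it (3 arrays). As background, this knock-in puts green fluorescent protein in place of the coding sequence of Omp, the gene of olfactory marker protein. Homozygous mice therefore make no olfactory marker protein, while heterozygous mice keep an intact copy and carry fewer GFP copies. There was no wild-type group, so loss of olfactory marker protein and the dose of GFP cannot be told apart. The labels state neither age nor sex, nor whether an RNA sample came from a single animal or a pool, so p-values measure the spread between these samples.

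Heat shock proteins are molecular chaperones that bind unfolded proteins and help them reach or regain their native shape. Hsp70 proteins do this in cycles of ATP binding, DnaJ proteins (also called Hsp40) bring clients to Hsp70 and stimulate its ATPase, and Hsp90 proteins act later on kinases, receptors and other clients. Small heat shock proteins hold unfolding proteins without ATP, and heat shock factors switch on many of these genes when proteins misfold. In neurons, Hsc70 encoded by Hspa8 and its DnaJ partners also serve the cycling of synaptic vesicles. Olfactory sensory neurons fold large amounts of odorant receptor in the endoplasmic reticulum and are replaced throughout life.

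Signals are MAS5 values, a summary of probe brightness on a linear scale, with a 2% trimmed mean of 500 on every array and medians between 147.9 and 163.7. The signal of a probe set is not a level that can be set against another gene's, so each gene is compared with itself across arrays. In a bulk tissue, fewer cells of a type and less RNA per cell cannot be told apart. Defining markers of the tissue were present. The 7 olfactory neuron markers on the array, such as Stoml3 and Gng13, summed to 60650.0 to 65425 in homozygous and 51322 to 66899 in heterozygous arrays, and 6 sustentacular markers to 50220.0 to 54593 and 49166 to 53273. Probe set 1422200_at stood for Omp in the neuron sum and in the test over all genes. It read 7918.5, 8147.7 and 8774 in homozygous arrays, against 8709, 7967.8 and 8318.5 in heterozygous arrays. The test over all genes therefore read Omp at a probe set that did not separate the groups. The other probe set of Omp, 1422199_at, read 5.7, 8.8 and 31.3 in homozygous 1 to 3, against 26.3, 4664 and 9143 in heterozygous 1 to 3. There the library labelled heterozygous 1 stood apart from its group. Its value lay within the homozygous range, which goes against its label. It was kept in its labelled group, so every difference given with all arrays rests on that label. That library also had the highest summed signal of 3 myelin and glial genes, 12300.0, against 1793 to 2213 on the other arrays. Heterozygous 3 had the highest sum of 8 bulb and brain markers, 7526, against 5062 to 5568 elsewhere. Snap25 was the largest part of that sum, at 4912 in heterozygous 3. Of these markers only Eomes was lowest on that array, at 205.2, against 310.5 to 510.0 elsewhere. Results are therefore given without these libraries as well. Ratios of 3-prime to 5-prime signal lay between 0.715 and 0.755 in homozygous and 0.705 and 0.730 in heterozygous arrays for Gapdh, and between 1.28 and 1.31 in homozygous and 1.28 and 1.32 in heterozygous arrays for actin.

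Promoters of some of these genes carry motifs that textbooks tie to chaperone induction, so windows that hold them are shown before the values. RefSeq windows of GRCm38.p6, from 250 bases before to 50 after a start site, were found for 60 of the 74 genes. The heat shock element bound by heat shock factors was searched as GAANNTTCNNGAA on both strands. It was found in 4 of these 60 genes (6.67%), Hspd1, Hspe1, Hsph1 and Dnajb6, and in 179 of 27025 genes with a window (0.662%). The endoplasmic reticulum stress element, to which ATF6 and NF-Y bind, was searched as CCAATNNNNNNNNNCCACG. It was found in 3 of the 60 genes (5%), Hspa5, Hsp90b1 and Dnajc3, and in 37 of 27025 (0.137%). A match describes the letters and does not show that a factor binds there. Lack of a match does not show that a gene has no such element, since only exact letters in these windows were searched. Hspd1 and Hspe1, which encode the mitochondrial chaperonin Hsp60 and its co-chaperonin Hsp10, are read in opposite directions. The Hspe1 window and the Hspd1 window that holds the element share 285 bases of DNA. Another Hspd1 window, at a different start site, shares 4. Capitals mark the matches, written 5′ to 3′ on the strand of the gene. The windows are chr1:55087898-55088197 (plus strand) for Hspe1, chr5:149636287-149636586 (minus) for Hsph1 and chr5:29735648-29735947 (plus) for Dnajb6. Those with the endoplasmic reticulum stress element are chr2:34771840-34772139 (plus) for Hspa5, chr10:86705395-86705694 (minus) for Hsp90b1 and chr14:118937682-118937981 (plus) for Dnajc3.
Hspe1: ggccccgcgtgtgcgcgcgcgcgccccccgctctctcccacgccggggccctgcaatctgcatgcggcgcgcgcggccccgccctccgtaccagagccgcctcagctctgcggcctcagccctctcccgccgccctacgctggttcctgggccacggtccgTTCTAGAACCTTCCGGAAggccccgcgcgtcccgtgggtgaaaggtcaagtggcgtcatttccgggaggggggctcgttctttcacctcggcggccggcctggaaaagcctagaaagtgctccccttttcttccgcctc
Hsph1: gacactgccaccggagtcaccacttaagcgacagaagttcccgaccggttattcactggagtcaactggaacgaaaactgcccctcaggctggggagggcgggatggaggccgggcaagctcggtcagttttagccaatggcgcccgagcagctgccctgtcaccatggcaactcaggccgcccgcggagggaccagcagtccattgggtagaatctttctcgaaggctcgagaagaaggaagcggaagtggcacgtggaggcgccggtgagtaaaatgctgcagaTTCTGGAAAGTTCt
Dnajb6: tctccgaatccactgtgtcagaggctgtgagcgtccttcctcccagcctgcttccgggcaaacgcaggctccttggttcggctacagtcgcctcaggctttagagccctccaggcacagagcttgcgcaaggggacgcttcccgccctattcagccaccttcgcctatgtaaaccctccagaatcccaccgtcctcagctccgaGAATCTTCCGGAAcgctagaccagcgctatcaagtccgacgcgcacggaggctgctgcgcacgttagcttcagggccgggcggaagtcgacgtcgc
Hspa5: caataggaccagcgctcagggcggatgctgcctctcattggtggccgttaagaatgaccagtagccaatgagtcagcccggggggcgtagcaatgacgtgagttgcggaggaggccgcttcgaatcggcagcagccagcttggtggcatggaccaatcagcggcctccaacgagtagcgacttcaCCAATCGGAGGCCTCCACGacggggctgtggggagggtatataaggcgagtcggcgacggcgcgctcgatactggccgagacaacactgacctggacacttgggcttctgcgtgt
Hsp90b1: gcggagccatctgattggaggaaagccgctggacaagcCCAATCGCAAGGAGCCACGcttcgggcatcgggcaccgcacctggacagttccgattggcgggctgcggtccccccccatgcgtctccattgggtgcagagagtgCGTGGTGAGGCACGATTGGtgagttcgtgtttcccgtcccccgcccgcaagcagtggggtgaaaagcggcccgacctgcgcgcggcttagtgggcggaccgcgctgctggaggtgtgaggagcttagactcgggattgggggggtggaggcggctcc
Dnajc3: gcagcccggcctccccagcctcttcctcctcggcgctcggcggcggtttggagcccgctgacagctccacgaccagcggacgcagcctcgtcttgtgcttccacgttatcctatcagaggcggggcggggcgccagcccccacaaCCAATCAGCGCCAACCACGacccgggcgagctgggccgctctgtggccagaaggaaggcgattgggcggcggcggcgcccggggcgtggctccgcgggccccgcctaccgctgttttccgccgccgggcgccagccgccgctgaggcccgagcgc
In the Hspe1 window 2 matches overlap, so they appear as a single run of capitals that begins 89 bases before the start. In the windows shown, the Dnajb6 match begins 46 bases before the start and the Hsph1 match 36 bases past it. Both genes also have a window at another start site. From that site, the same matches begin 127 bases before the start for Dnajb6 and 15 bases past it for Hsph1. In the Hsp90b1 window the matches lie on opposite strands. The shorter letters GAANNTTC, which every full heat shock element contains, were in 14 of 60 member genes (23.3%), Hspa1a, Hspa1b and Hspb1 among them, and in 9.04% of all genes with a window.

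No heat shock or DnaJ gene passed the test of a difference between homozygous and heterozygous arrays. In limma with Benjamini-Hochberg adjustment, 0 of 59 members had an adjusted p under 0.05, beside 0% of all 11426 genes tested. At an unadjusted p under 0.05 there were again 0 of 59, beside 4.81% of all genes tested, and a plain pooled-variance test without adjustment called 2, Hspb8 and Dnaja2 (3.39% of members, 4.93% of all genes by that test). Homozygous and heterozygous signals were fully separate for 4 members (6.78%), Hspa5 and Dnajc18 higher and Hspb8 and Dnaja2 lower in homozygous arrays, against 10.3% of all genes tested. After quantile normalization 2 members were separate (10.3% of all genes), and with the mean of all probe sets of a gene 1 was (10.4%). Of the 59 log2 differences, homozygous minus heterozygous, 27 were positive and 32 negative, beside 49.8% positive over all genes tested. Their median was -0.01, and that of all genes -0.0004. They ran from -0.25 for Dnajc17 to 0.20 for Hspb2, and the median SE was 0.10. The 95% interval of the difference lay within a 1.5-fold change either way for 57 of 59 members (96.6%) and for 94.3% of all genes tested. Dnajc17, with an interval from -0.76 to 0.26, and Hspb2, with one from -0.20 to 0.60, were the exceptions. The plot of differences by family shows each gene with its interval.

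**Figure D1:**
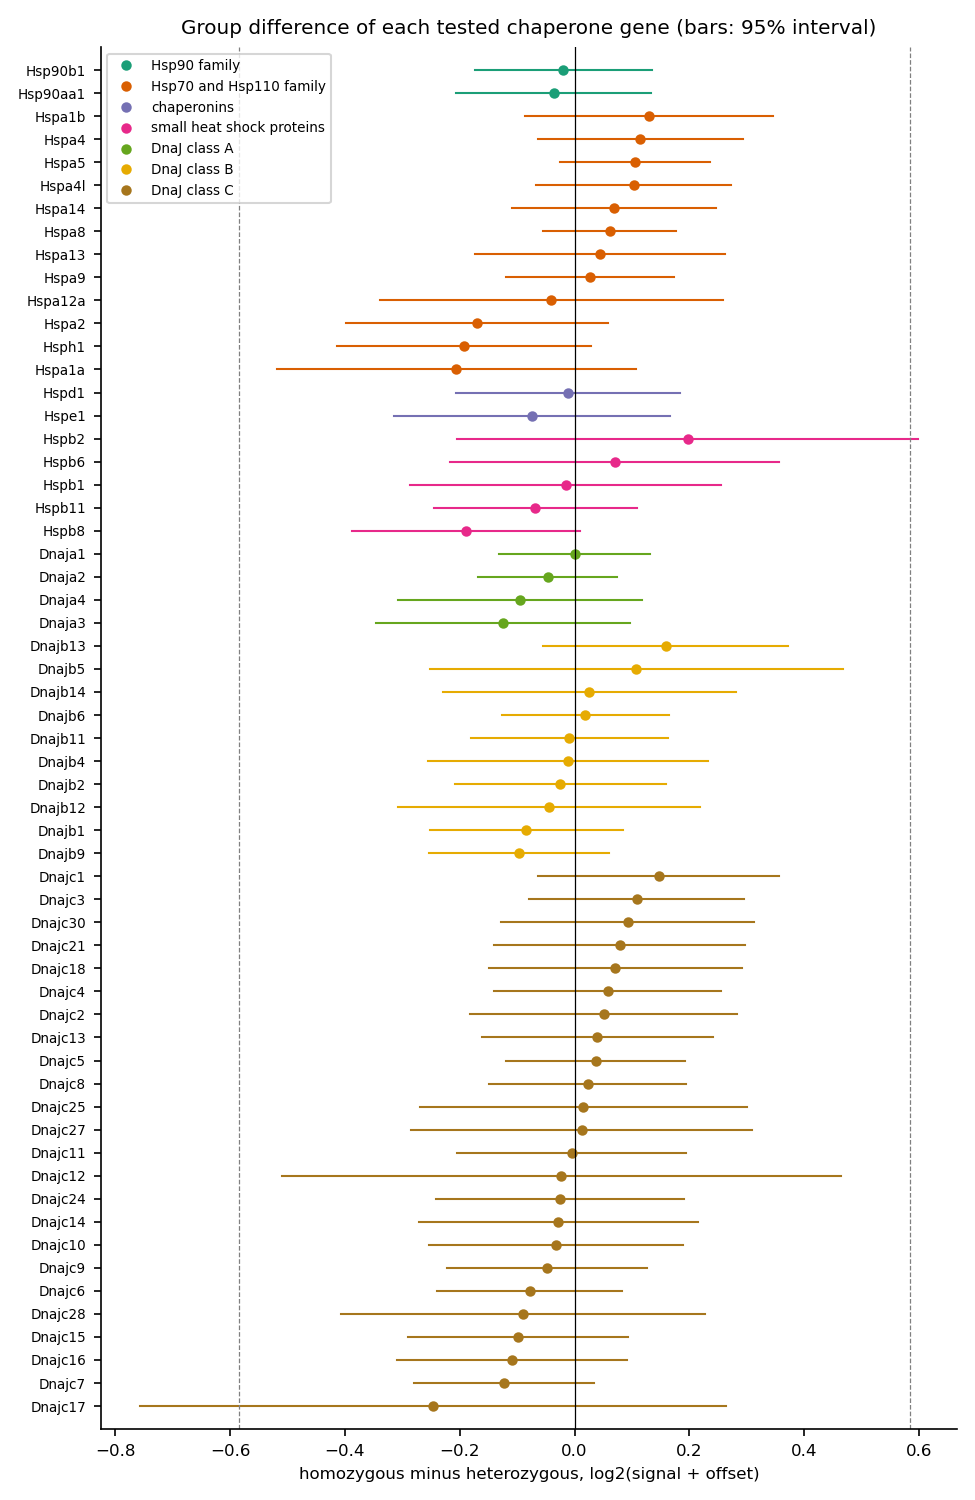
Log2 difference, homozygous minus heterozygous, of the 59 tested genes, grouped and coloured by family, with 95% intervals as bars. The solid line marks no difference and the dashed lines a 1.5-fold change (0.585 on the log2 scale), which only the bars of Dnajc17 and Hspb2 cross.

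Without the library labelled heterozygous 1 no member passed adjustment, and 3 had an unadjusted p under 0.05 (5.08% of members, 6.57% of genes tested in that setting). These were Dnajb13, Hspa2 and Hspb8. Without heterozygous 3 there were 5 (8.47% beside 7.23%), Dnaja3, Dnajc17, Hspb1, Hspe1 and Hsph1, and again none passed adjustment. With both left out there were 6 (10.2% beside 7.65%), Dnajc15, Dnajc17, Hspa8, Hspb1, Hspb8 and Hspe1, and the lowest adjusted p of a member was 0.276 in limma.

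Among the cytosolic Hsp70 and Hsp90 genes that fold newly made and stressed proteins, differences ran from -0.21 for Hspa1a to 0.13 for Hspa1b. Hspa8, which encodes the constitutive Hsc70 that also strips clathrin from vesicles, read 20848, 19936 and 20599.6 in homozygous arrays, against 20416, 18678 and 19775 in heterozygous arrays. Heterozygous 2 was the lowest array, and the groups overlapped. The difference was 0.06 ± 0.05 on the log2 scale (SE), with an interval from -0.06 to 0.18 and a limma adjusted p of 0.974.

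Hsp90aa1, the stress-inducible cytosolic Hsp90, read 9915, 10697 and 10664 in homozygous arrays, against 9795, 10369 and 12019 in heterozygous arrays. Heterozygous 3 was the highest array and the library labelled heterozygous 1 the lowest, so the groups overlapped. Its difference was -0.04 ± 0.08 (SE) there, 0.13 at its probe set 1426645_at and 0.07 at 1437497_a_at. Without heterozygous 3, 1426645_at was the brightest probe set and differed by 0.17, with an unadjusted limma p of 0.0967. The Hsp70 relatives Hspa4 and Hspa4l, which serve as exchange factors that release ADP from Hsp70, differed by 0.11 ± 0.08 and 0.10 ± 0.08 (SE) at their brightest probe sets. The other probe sets of Hspa4 had the opposite sign, -0.21 and -0.16. Hspa14, a ribosome-associated Hsp70, differed by 0.07 ± 0.08 (SE).

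Hsph1, the Hsp110 exchange factor whose window holds a heat shock element, had the lowest p in limma of the Hsp70 and Hsp110 family, 0.0821 before adjustment and 0.974 after it. Its signal was 1266.5, 1558.5 and 1575 in homozygous arrays, against 1808, 1664 and 1557 in heterozygous arrays. Homozygous 1 was the lowest array and the library labelled heterozygous 1 the highest, while the other 4 arrays lay between 1557 and 1664. The difference was -0.19 ± 0.10 (SE), and -0.09 without homozygous 1. Without heterozygous 3 it was -0.24, with an unadjusted limma p of 0.0387 and an adjusted p of 0.659. At its other probe set it was -0.04.

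Hspa2, an Hsp70 best known from male germ cells, read 509, 495 and 532.5 in homozygous arrays, against 518, 588 and 643 in heterozygous arrays. The library labelled heterozygous 1 fell within the homozygous range, and the difference was -0.17 ± 0.10 (SE). Without that library it was -0.25, with an unadjusted limma p of 0.0421 and an adjusted p of 0.74, and without heterozygous 3 it was -0.10.

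Hspa1a and Hspa1b, neighbouring genes that encode nearly the same strongly heat-inducible Hsp70, had differences of opposite sign. Hspa1a read 201, 207 and 248 in homozygous arrays, against 274, 285 and 217.5 in heterozygous arrays, a difference of -0.21 ± 0.14 (SE). For Hspa1b the signals were 479, 513.5 and 552 in homozygous arrays, against 479.7, 448 and 473 in heterozygous arrays, a difference of 0.13 ± 0.10 (SE). The groups overlapped for both, and the other probe sets of Hspa1b differed by -0.08 and -0.15. Transcripts of this pair are so alike that probe sets may read both, and they are treated as uncertain.

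As a group, the heat-inducible cytosolic and mitochondrial chaperones had 12 tested genes of 13 listed, since no probe set named Hsp90ab1 alone. These 12 had 4 positive and 8 negative differences and a median of -0.01. None had an unadjusted p under 0.05, and for none did the groups separate. Dnajb1, the heat-induced DnaJ partner of Hsp70, read 2043, 2133.5 and 1972 in homozygous arrays, against 2284.5, 2222 and 2022 in heterozygous arrays. The difference was -0.08 ± 0.08 (SE), and 0.04 at its other probe set. Dnaja1, another cytosolic partner of Hsp70, differed by 0.0007, with an interval from -0.13 to 0.13, and by -0.15 and -0.05 at its other probe sets. Dnajb4 differed by -0.01. In the same tissue, the signals of 10 immediate early and stress genes were summed, with Jun and Dusp1 as the largest parts. The sum was 11407 to 13453 in homozygous and 11195 to 12787 in heterozygous arrays.

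**Figure D2:**
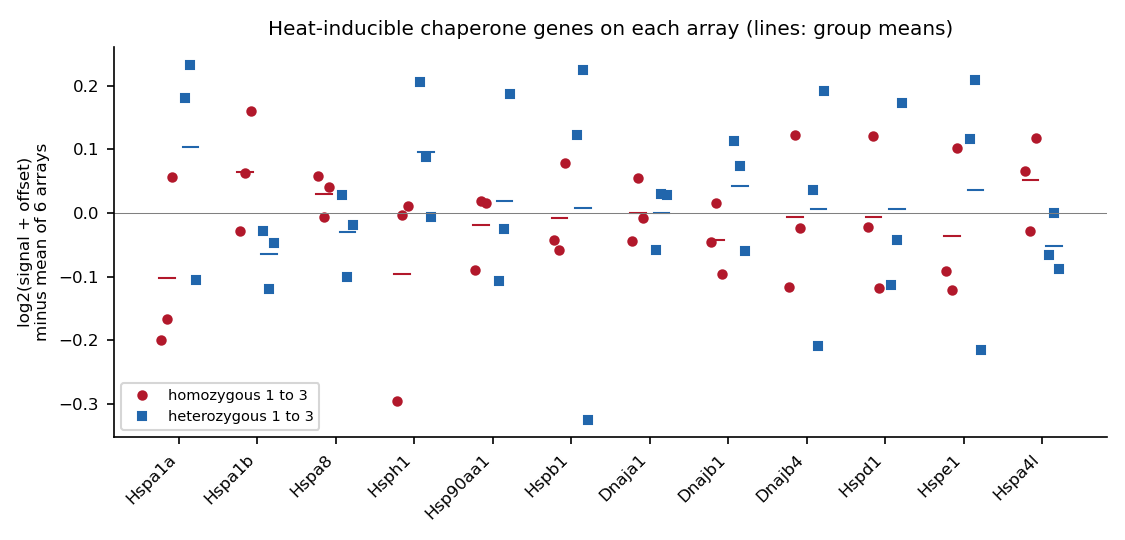
Signal of 12 heat-inducible chaperone genes on each array, as log2(signal + 38.8) minus the gene's mean over 6 arrays. Circles are homozygous 1 to 3, squares heterozygous 1 to 3, each in order from the left, and lines are group means. The groups overlap for every gene, and homozygous 1 for Hsph1 and heterozygous 3 for Hspb1 are the farthest points below 0.

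Chaperones of the endoplasmic reticulum, where odorant receptors and secreted proteins fold, comprised 11 tested genes, with 6 positive and 5 negative differences and a median of 0.02. Hspa5 encodes BiP, the Hsp70 of that compartment and a classical target of the unfolded protein response. It read 11243.5, 12317 and 11164 in homozygous arrays, against 11020.4, 10822 and 10408 in heterozygous arrays. Every homozygous array was above every heterozygous one; a separation in this direction was seen in 4.82% of all genes tested. The difference was 0.11 ± 0.06 (SE), with an interval from -0.03 to 0.24 and a limma adjusted p of 0.974. Without homozygous 2, the highest array, it was 0.06. Its other probe sets differed by -0.02 and 0.02.

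The other genes whose windows hold the endoplasmic reticulum stress element gave no common direction at their brightest probe sets. Hsp90b1, the Hsp90 of the reticulum also named Grp94, read 5483, 5099 and 5808 in homozygous arrays, against 5239.7, 5602 and 5763 in heterozygous arrays. The groups overlapped, with a difference of -0.02 ± 0.07 (SE) there and 0.14 at its other probe set. Dnajc3, which encodes p58IPK, a co-chaperone of BiP, read 1489.9, 1791 and 1567 in homozygous arrays, against 1474.5, 1489.9 and 1512 in heterozygous arrays. Homozygous 2 stood above the rest, and its difference was 0.11 ± 0.09 (SE), or 0.03 without that array.

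Dnajb9, or ERdj4, whose product helps remove misfolded proteins from the reticulum, ran the other way, at 4565, 4753 and 5243.5 in homozygous arrays, against 5431, 5145 and 4983 in heterozygous arrays. Homozygous 3 fell among the heterozygous arrays, and the difference was -0.10 ± 0.07 (SE). Dnajc1, a membrane-bound partner of BiP, differed by 0.15, and by -0.15, -0.01 and 0.03 at its other tested probe sets. Dnajc10, a reductase of the reticulum, differed by -0.03, and by 0.14 and -0.10 at its other probe sets. Hspa13 differed by 0.04 and Dnajb11, which escorts clients to BiP, by -0.01.

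Mitochondrial chaperones comprised 9 tested genes, of which 3 differences were positive and 6 negative, with a median of -0.01. Hspe1 read 3071, 3007 and 3518 in homozygous arrays, against 3554, 3790.5 and 2815 in heterozygous arrays. Hspd1, which shares its promoter DNA, read 4828, 5338 and 4517 in homozygous arrays, against 4532, 4761.5 and 5529.9 in heterozygous arrays. The order of the arrays was nearly reversed between these probe sets: heterozygous 3 was the lowest array for Hspe1 and the highest for Hspd1. Homozygous 2 was the next to lowest for Hspe1 and the next to highest for Hspd1. Group differences were -0.07 ± 0.11 for Hspe1 and -0.01 ± 0.09 for Hspd1 (SE), and without heterozygous 3 that of Hspe1 was -0.20 (unadjusted limma p 0.0318, adjusted 0.659) and that of Hspd1 0.07. Without heterozygous 2 that of Hspe1 was 0.01. The other probe set of Hspe1 differed by -0.04.

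Hspa9, or mortalin, the Hsp70 that pulls proteins into mitochondria, differed by 0.03, with an SD over the 6 arrays of 0.04 that was larger in 98.6% of genes tested. Dnaja3, its DnaJ partner, read 857, 889 and 791 in homozygous arrays, against 1008, 963 and 815 in heterozygous arrays. Its difference was -0.13 ± 0.10 (SE), and -0.21 without heterozygous 3, where the unadjusted p in limma was 0.0394 and the adjusted p 0.659. It was -0.07 without the library labelled heterozygous 1 and -0.08 without homozygous 3, and its other tested probe set differed by 0.02.

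Small heat shock proteins held the gene of lowest p among all members, Hspb8. Its product works with the co-chaperone Bag3 to route damaged proteins to autophagy. Hspb8 read 610.1, 646.5 and 663.5 in homozygous arrays, against 697, 778 and 731 in heterozygous arrays. Every homozygous array was below every heterozygous one, a separation in this direction seen in 5.51% of all genes tested. The difference was -0.19 ± 0.09 (SE), with an interval from -0.39 to 0.01 and limma p values of 0.0601 before and 0.974 after adjustment. Its probe set 1417014_at differed by -0.19 as well, and another, 1456434_x_at, by 0.04. Under the alternatives tried, the difference of Hspb8 stayed negative, between -0.27 and -0.11, and its adjusted p lay between 0.652 and 1.

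Hspb1, or Hsp27, which protects actin filaments and damaged axons, read 3452, 3415 and 3759.5 in homozygous arrays, against 3878, 4166 and 2834 in heterozygous arrays. Heterozygous 3 was the lowest array and heterozygous 2 the highest, so the difference of -0.02 ± 0.12 (SE) was an average over arrays that disagreed. Without heterozygous 3 it was -0.18, with an unadjusted limma p of 0.0268 and an adjusted p of 0.659, and without heterozygous 2 it was 0.09. Its other probe set had the same lowest and highest arrays. Mature olfactory neuron markers also had their lowest sum in heterozygous 3, at 51322, and bulb and brain markers their highest, with Eomes running the other way. Of the neuron markers, Omp was not lowest there, at 8318.5 for 1422200_at, against 7918.5 in homozygous 1. Its other probe set, 1422199_at, was highest there, at 9143. The other neuron markers of the list were each lowest on that array. The part of these markers in the value of Hspb1 was not tested.

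Hspb2, a muscle-associated small heat shock protein, read 177, 195 and 207 in homozygous arrays, against 196, 190.2 and 114 in heterozygous arrays. The low value of heterozygous 3 set its difference of 0.20 ± 0.18 (SE), which was -0.0033 without that array. Striated muscle markers summed to 491 to 702 in homozygous and 326 to 500.0 in heterozygous arrays, with Ckm between 29 and 77 on all arrays, and their part in the signal of Hspb2 was not tested. Hspb6, also abundant in muscle, differed by 0.07, and Hspb11, also known as Ift25 and a component of intraflagellar transport in cilia, by -0.07.

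Among DnaJ proteins of classes A and B, which carry the J domain together with client-binding regions, 5 of 14 differences were positive and none had an unadjusted p under 0.05. Dnaja2, a cytosolic partner of Hsc70, was the steadiest member. It read 6631, 6438.5 and 6514 in homozygous arrays, against 6734, 6806 and 6695 in heterozygous arrays. The homozygous arrays all lay below the heterozygous ones, yet the difference was only -0.05 ± 0.06 (SE), with a limma adjusted p of 0.979. Its SD over the 6 arrays was 0.03. Dnaja4 differed by -0.09, and Dnajb6, a suppressor of protein aggregation whose window holds a heat shock element, by 0.02 ± 0.07 (SE). Dnajb2, a neuronal DnaJ protein that sorts ubiquitinated clients, differed by -0.02.

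Dnajb13, a radial spoke protein of motile cilia and sperm tails, read 1461, 1491 and 1506 in homozygous arrays, against 1484, 1366 and 1151 in heterozygous arrays. The library labelled heterozygous 1 fell within the homozygous range, and the difference was 0.16 ± 0.10 (SE), or 0.24 without that library, with an unadjusted limma p of 0.0314 and an adjusted p of 0.73. Without heterozygous 3 it was 0.06. The 7 motile cilia markers summed to 5945 to 6323 in homozygous and 5575 to 5700.0 in heterozygous arrays. Rfx3 was the largest part of this sum, at 3461, 3611 and 3539 in homozygous arrays, against 3109, 2860 and 3141 in heterozygous arrays. The part of these markers in the value of Dnajb13 was not tested. Single markers of that list did not all run this way: Foxj1 read 672, 693 and 761 in homozygous arrays, against 873, 872.5 and 622 in heterozygous arrays. The groups overlapped for Foxj1, Tekt1, Dnah5 and Dnaic1. Besides Rfx3, only Ccdc39 and the very dim Spag6 were higher in every homozygous array than in the heterozygous arrays.

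Class C DnaJ proteins, which share only the J domain and have specialised tasks, comprised 24 tested genes with 12 positive and 12 negative differences. Dnajc5 encodes cysteine string protein, which guards SNARE proteins on synaptic vesicles. It read 2169, 2325 and 2173.5 in homozygous arrays, against 2247, 2112 and 2138 in heterozygous arrays, a difference of 0.04 ± 0.07 (SE) with an interval from -0.12 to 0.19. Dnajc6, or auxilin, the neuronal factor that recruits Hsc70 to clathrin coats, read 1959.8, 2117 and 1964 in homozygous arrays, against 2045, 2121 and 2216 in heterozygous arrays, a difference of -0.08 ± 0.07 (SE). The groups overlapped for both. The other tested probe sets of Dnajc6 had the opposite sign, 0.02 and 0.18, and those of Dnajc5 ran from -0.15 to 0.09. Dnajc13, a DnaJ protein of endosomes, differed by 0.04, and by 0.31 at its other tested probe set, 1445337_at, with an unadjusted limma p of 0.0676 there.

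Dnajc7, which passes clients between Hsp70 and Hsp90, had the lowest unadjusted p of class C in limma, 0.113. Its signal was 3794, 4199.5 and 3962 in homozygous arrays, against 4151, 4236 and 4643 in heterozygous arrays, a difference of -0.12 ± 0.07 (SE). Homozygous 2 fell within the heterozygous range. Dnajc8, a splicing-associated DnaJ protein, and Dnajc9, a histone chaperone, differed by 0.02 and -0.05. Dnajc18 read 387, 379 and 400.0 in homozygous arrays, against 374, 374 and 356 in heterozygous arrays, so the groups did not overlap, but the difference was 0.07 ± 0.10 (SE), and its other probe sets differed by -0.17 and 0.04.

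The remaining 15 genes fell below the brightness filter, with signals between 1.3 and 148.7 on all arrays. They include the heat shock factors measured here, Hsf2, Hsf4 and Hsf5, and the factor-binding protein gene Hsf2bp. No probe set named Hsf1 alone, so that factor was not among the members. Hsf2, which cooperates with Hsf1 in development and stress, read 71.7, 77.8 and 58.5 in homozygous arrays, against 46.8, 57.4 and 75.6 in heterozygous arrays, with overlap between groups. Also in this range were the testis-enriched genes Dnajb3, Dnajb7, Dnajb8, Dnajc5g, Hspa1l and Hspb9, the muscle genes Hspb3 and Hspb7, the endothelial gene Hspa12b, Dnajc22 and Dnajc5b. When no filter was applied, 74 genes were tested and 2 had an unadjusted p under 0.05 (2.70% of members, 5.14% of genes tested in that setting), Hspb8 and Dnajc5b. Dnajc5b read 59.0, 61.1 and 89.4 in homozygous arrays, against 37.7, 12.2 and 24.1 in heterozygous arrays. The groups did not overlap, but the signals lie near the offset of 38.8 added before the log, and no member passed adjustment in that setting.

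Single arrays set the values of several members. Dnajc17, an RNA-binding DnaJ protein of the nucleus, had the largest SD over the 6 arrays, 0.41 on the log2 scale, exceeded by 1.1% of genes tested. It read 494, 495 and 659 in homozygous arrays, against 685, 960.3 and 419.5 in heterozygous arrays. The heterozygous arrays held both the highest and the lowest value. The difference of -0.25 ± 0.23 (SE) became 0.02 without heterozygous 2 and -0.54 without heterozygous 3 (unadjusted limma p 0.00603, adjusted 0.659). It was -0.78 without the libraries labelled heterozygous 1 and 3, where heterozygous 2, the highest array, was alone in its group. At its other tested probe set it was -0.11.

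Dnajc12, a co-chaperone of the aromatic amino acid hydroxylases, had the next largest SD, 0.36. It read 711.5, 375 and 777 in homozygous arrays, against 691, 625 and 509.6 in heterozygous arrays. Homozygous 2 was the lowest of all, and the difference of -0.02 ± 0.22 (SE) was 0.28 without that array and -0.21 without homozygous 3. The others among the 10 members of largest SD were Hspb2, Dnajb5, Hspb1, Hspa1a, Hsph1, Hspe1, Dnajb14 and Hspb6, with SDs from 0.25 down to 0.15. Dnajb5 and Dnajb14 differed between groups by 0.11 and 0.03. With single arrays left out the difference of Dnajb5 lay between 0.01 and 0.24 and that of Dnajb14 between -0.07 and 0.12. The median SD over the members tested was 0.10, beside 0.12 over all genes tested.

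Heterozygous 3 was the lowest array for 14 of 59 members (23.7%) and for 27.5% of all genes tested. It was the highest for 11 members (18.6%) and for 19.1% of all genes.

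**Figure D3:**
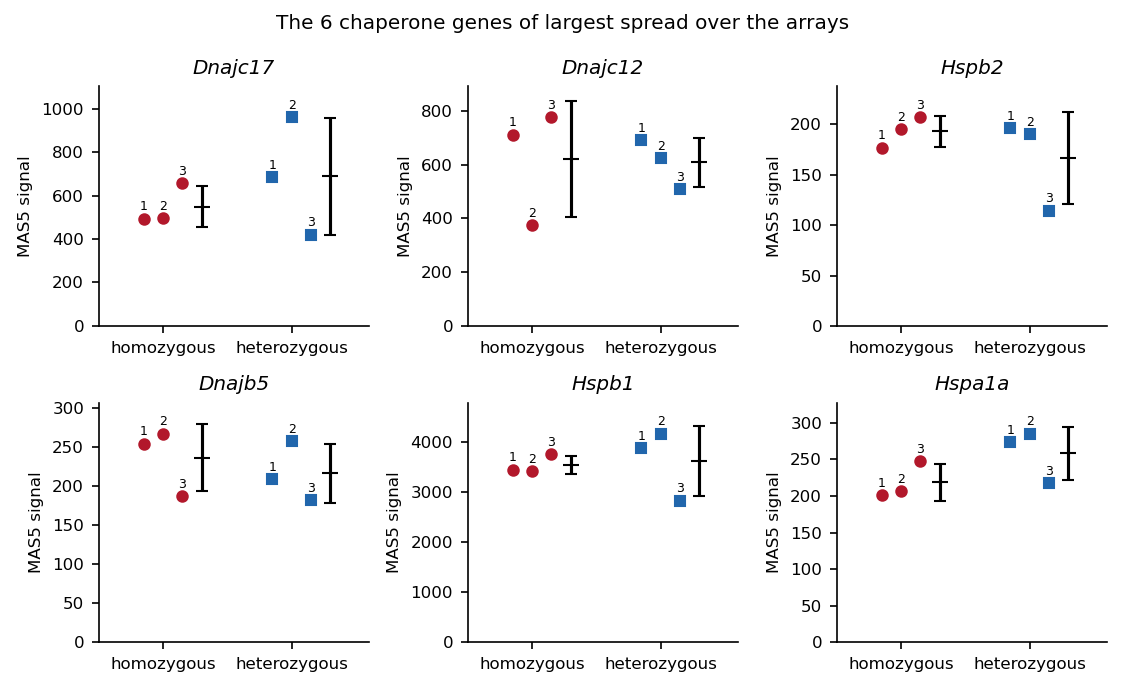
MAS5 signal of the 6 tested genes of largest SD over the arrays, homozygous (circles) left of heterozygous (squares), with replicate numbers at the points and group mean ± SD in black (n = 3 each). Homozygous 2 is lowest for Dnajc12, and heterozygous 3 is lowest for Dnajc17, Hspb2, Hspb1 and, close to homozygous 3, Dnajb5.

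Several members have more than 1 tested probe set, which gives a check of each difference within the same RNA. In 39 members with at least 2 tested probe sets, the sign of the difference was the same at all of them in 15 (38.5%), beside 46.4% of 5078 such genes over the array. No member had probe sets whose differences lay over 0.5 apart on the log2 scale, against 2.62% of all such genes. The widest range was that of Dnaja2, from -0.38 at 1457233_at to 0.07 at 1417182_at. At 1457233_at the signal was 459, 450.0 and 559.9 in homozygous arrays, against 540.5, 523 and 942 in heterozygous arrays, with heterozygous 3 far above the rest. The 5 probe sets of Dnajc3 ran from -0.22 to 0.11, the 3 of Hspa4 from -0.21 to 0.11 and the 4 of Hspa8 from -0.23 to 0.06, whereas all 5 of Hspa4l were positive, from 0.02 to 0.15. All 3 of Hspa13, an Hsp70 of the secretory pathway, were positive too, from 0.04 to 0.18.

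**Figure D4:**
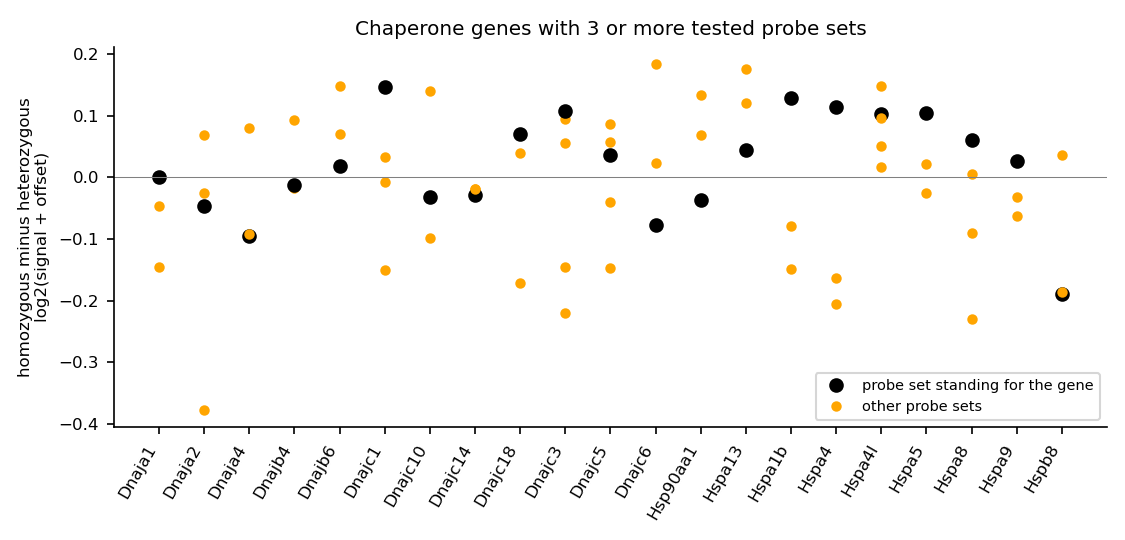
Log2 difference, homozygous minus heterozygous, at each tested probe set of the 21 genes with 3 or more. Black points are the probe sets standing for the genes and orange points the others. In 17 of them the points lie on both sides of 0, and the lowest is a probe set of Dnaja2 at -0.38.

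Other genes of the chaperone pathway, listed by their role, were read from the same fit. Of 51 listed, 49 were on the array and 48 tested, with a median difference of -0.03. There were 17 positive and 31 negative differences (35.4% positive), beside 49.8% positive over all genes tested. None passed adjustment. At an unadjusted limma p under 0.05 there were 3 of 48 (6.25%, 1 positive and 2 negative), beside 4.81% of all genes tested. The groups were fully separate for 3 as well (6.25%), beside 10.3% of all genes tested. Cct6a, a subunit of the cytosolic chaperonin that folds actin and tubulin, read 7018, 6892.5 and 7686 in homozygous arrays, against 8206.5, 8042.7 and 7948.5 in heterozygous arrays. All homozygous arrays were lower, a separation in this direction seen in 5.51% of all genes tested. The difference was -0.16 ± 0.06 (SE), with an unadjusted limma p of 0.0219 and an adjusted p of 0.974.

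Cryab, the small heat shock protein alpha-B-crystallin, differed by -0.21 ± 0.09 (SE), with unadjusted and adjusted limma p values of 0.0451 and 0.974. It read 1603, 1490.1 and 1734.5 in homozygous arrays, against 2060.0, 1857 and 1693 in heterozygous arrays. The highest array was the library labelled heterozygous 1, which also had the highest myelin and glial signal, and without it the difference was -0.14. Their part in the value of Cryab was not tested. Sdf2l1, a stress-induced component of the BiP complex, read 1630.5, 1684 and 1753 in homozygous arrays, against 1485, 1595 and 1394 in heterozygous arrays. All homozygous arrays were higher, a separation in this direction seen in 4.82% of all genes tested. The difference was 0.18 ± 0.08 (SE), with an unadjusted limma p of 0.0491 and an adjusted p of 0.974. Bag3, the partner of Hspb8, differed by -0.17 ± 0.10 (SE), with an unadjusted limma p of 0.13 and overlap between groups, and Stip1, which links Hsp70 to Hsp90, by -0.12 ± 0.08 (SE).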

How the data were processed

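RNA of olfactory epithelium from 3 homozygous and 3 heterozygous samples was hybridised to Affymetrix mouse 430 2.0 arrays, per the labels. The authors deposited 1 intensity for each probe set, which the submitters' processing notes name as MAS5 and whose values are on a linear scale. Their 2% trimmed mean was 500 on all 6 arrays, so no further scaling was applied. The version of MAS5 was not given in the sources used here.

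An offset of 38.8, the 25th percentile of the pooled values, was added before taking log2, which understates changes of dim probe sets. Probe sets at or above the median of the mean log2 value were tested (22514, controls left out) with the moderated test of limma 3.58.1 (R 4.3.3), its prior variance following signal. Tests were two-sided with a threshold of 0.05. The probe set of highest mean stood for a gene, and p-values were adjusted by Benjamini-Hochberg over 11426 genes. The 95% intervals use the same moderated SE. No more than 101 values were identical between any pair of arrays. The number of arrays limits the precision.

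The members and lists were chosen with earlier results of these data known. Genes named were those at unadjusted p under 0.05, the brightest 3 of each family, the 10 of largest SD, the heat-inducible list, and those whose groups or probe sets separated. Any further gene was chosen for its role or after its values were seen.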

Additional observations from a re-analysis of the deposited data

How the results depend on the processing

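No member passed adjustment under any of the 18 alternatives tried: other offsets, scalings, filters and variance models, the mean of all probe sets, a replicate block and arrays left out. Over all genes tested, 0 passed except 1 without the library labelled heterozygous 1 and 4 without the libraries labelled heterozygous 1 and 3, and with single arrays left out the count lay between 0 and 1. Genes at an unadjusted p under 0.05 numbered 935 with no filter, where more genes were tested, 312 with the filter at the 75th percentile, where fewer were, and 875 without the libraries labelled heterozygous 1 and 3. With single arrays left out they numbered between 322 and 827. Members at an unadjusted p under 0.05 numbered 1 after quantile normalization (1.69% of members, 4.81% of all genes), 1 with arrays shifted to a common median (1.69%, 4.85%), 2 with no filter (2.70%, 5.14%), 2 with the plain pooled-variance test (3.39%, 4.93%), 6 without the libraries labelled heterozygous 1 and 3 (10.2%, 7.65%), and between 0 and 5 with single arrays left out. Leaving out the libraries labelled heterozygous 1 and 3 leaves a lone heterozygous array, assumed to vary like the others. The cause was not tested. The median difference of the members was -0.0545 with a common median, where that of all genes was -0.0432, and 0.017 with no filter, and between -0.0075 and 0.0092 with single arrays left out. Of 606 differences of the 34 named genes under alternatives, 52 had another sign than in the main setting, in 21 genes.

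The replicate numbers did not pair the samples: deviations from the group mean of same-numbered arrays correlated at 0.016, -0.116 and -0.047. With the replicate block 451 genes and 0 members had an unadjusted p under 0.05. Dim probe sets limit what can be seen, since 15 members were below the filter.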
